A study of Gallus gallus with 21 samples.

Results

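The cerebrum of growing female Tibetan chickens at 100 days of age (D100) was compared with that of adult hens at 1 year of age (Y1). The comparison rests on 6 of the 21 RNA-seq libraries of the study, 3 of D100 and 3 of Y1, and each library came from a different bird. All birds were female. The birds of D100 were raised on a poultry farm in Ya'an, whereas the hens of Y1 were collected in Lhasa, so the place of rearing changed together with age and the contributions of place and age cannot be told apart. The labels name no treatment for either group. The libraries of E12, E16 and E20 (embryonic days 12, 16 and 20), Y3 and Y5 (hens of 3 and 5 years) entered the fit only to share the estimate of the spread between birds, so that 18 libraries at 7 stages were fitted. The identity of the tissue could not be checked against markers of the cerebrum, because 0 of the Ensembl identifiers in the mRNA table could be matched to a gene symbol.

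At 100 days a chicken is still growing and has not come into lay, and at 1 year it is a sexually mature hen. In birds as in mammals, the brain is formed largely before this interval, and what continues after it includes the maturation of synapses and the wrapping of axons by myelin. Besides the mRNAs that encode proteins, the cerebrum contains long non-coding RNAs (lncRNAs), transcripts longer than the small RNAs that are not translated into protein and that are usually present at lower levels than mRNAs. RNA was extracted from whole tissue, in which fewer cells of a type and less RNA per cell cannot be told apart.

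The values were FPKM, that is, fragment numbers corrected for transcript length and for the total of mapped fragments in a library. Listed among the mRNAs were 30 features of the mitochondrial genome, and whether each of them is an mRNA was not checked. They took up 28.8% of the summed FPKM of D100-3, against 1.07% and 1.96% in D100-1 and D100-2. In Y1 their share was between 1.58% and 2.56%. These mitochondrial features were therefore set aside. Each library was then rescaled to the same summed FPKM over all other mRNAs. A level in what follows is log2(rescaled FPKM+1), and a difference is the level in Y1 minus the level in D100. On this scale the difference of a weakly expressed transcript is smaller than the log2 ratio of its FPKM. Of the 30 mitochondrial features, 28 were higher in D100-3 than in the other 5 libraries. Over these features the level in D100-3 exceeded the mean of D100-1 and D100-2 by a median of 4.60. Between these other libraries of D100 and Y1 the median difference over the mitochondrial features was 0.13.

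Within D100, Pearson's correlation between libraries over 14528 mRNAs ranged from 0.902 to 0.950, and within Y1 from 0.945 to 0.984. Y1-1 and Y1-2 were the closest pair of the 6 libraries, with a correlation of 0.984. Between the groups the correlations ranged from 0.876 to 0.943 and thus overlapped with those inside D100. D100-2 resembled the adult hens more than the other birds of its age did, with correlations of 0.940, 0.943 and 0.922 with Y1-1, Y1-2 and Y1-3. The values of D100-1 with the same hens were 0.891, 0.892 and 0.883, and those of D100-3 were 0.925, 0.918 and 0.876. D100-3 correlated with D100-1 at 0.902, below its correlation with Y1-1. The median SD of an mRNA between birds was 0.334 at D100 and 0.305 at Y1, over the 13401 mRNAs with a mean level of at least 1. At every other stage fitted the median SD was lower, from 0.135 at Y5 to 0.303 at Y3. The values of E20, Y3 and Y5 rest on 2 libraries each. The fit shares a common spread over all stages, so its standard errors can be too small for D100 against Y1. How far this raised the number of calls was not tested. The SD depends on the scaling factors, which in log2 were 0.197, 0.009 and -0.232 for Y1-1, Y1-2 and Y1-3. Under median-ratio scaling, an alternative, the factors were -0.050, -0.040 and 0.054, and the SD was not computed with them.

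A single mRNA, ENSGALG00000017926 on chromosome 3, took up a large share of the remaining signal, with 34.5%, 33.6% and 32.8% of the non-mitochondrial FPKM in D100 and 26.3%, 32.4% and 38.5% in Y1. Because the scaling rests on this total, its share moves the levels of other mRNAs. Its level was 17.71 ± 0.04 in D100 and 17.64 ± 0.28 in Y1 (SD, n = 3), and it was not called (difference -0.07, adjusted p = 0.971, limma with Benjamini-Hochberg adjustment). This share, the mitochondrial share, the median mRNA level, the number of mRNAs at 0 and the number of lncRNAs with a value did not separate the groups in exact two-sided permutation tests, with p between 0.3 and 0.8. With 3 birds against 3, the smallest p such a test can give is 0.1.

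Between D100 and Y1, 359 mRNAs rose and 322 fell, out of 14528 tested. An mRNA was called when its level changed by at least a factor of 2 on this scale and its Benjamini-Hochberg adjusted p in limma was at most 0.05. The calls made up 4.69% of the mRNAs tested, 2.47% higher and 2.22% lower in Y1. The median difference was 1.45 among the mRNAs that rose and -1.50 among those that fell, against 0.07 over all mRNAs tested. Large changes were more numerous among falls than among rises. Of the falls, 78 exceeded 2 in size compared with 55 of the rises, and 18 falls exceeded 3 compared with 5 rises. The median level over all libraries was 2.982 for the rises and 3.765 for the falls, and this scale shrinks differences at low levels. The part of the scale in these counts was not tested. An adjusted p under 0.01 was reached by 127 falls and 88 rises.

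**Figure D1:**
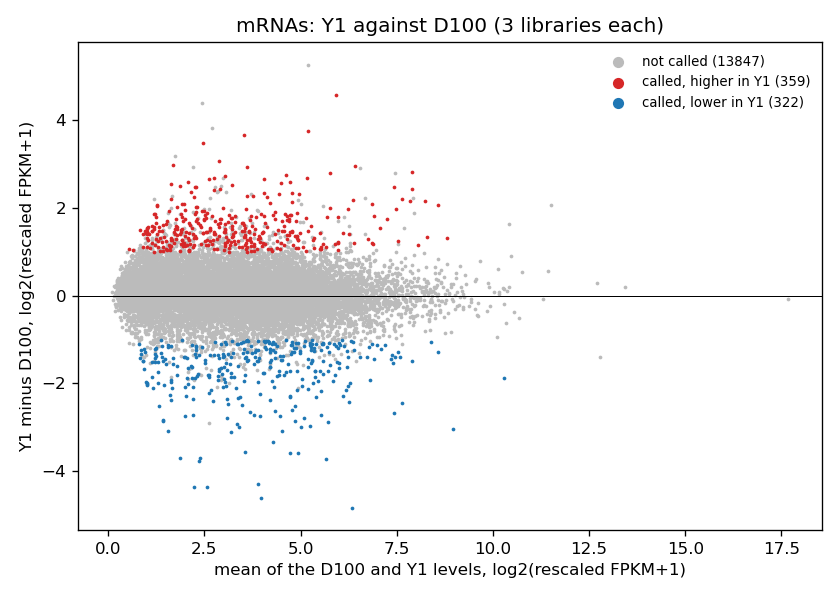
Each point is 1 of 14528 mRNAs. The horizontal axis is the mean of its levels in D100 and Y1 and the vertical axis is the difference Y1 minus D100, both on the log2(rescaled FPKM+1) scale. Red points are the 359 mRNAs called higher in Y1 and blue points the 322 called lower, and the blue points reach further from 0 than most red points do.

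The groups did not overlap for 348 of the 359 mRNAs that rose and for 320 of the 322 that fell. Among all mRNAs tested, the 3 libraries of Y1 lay above the 3 of D100 for 12.9% and below them for 8.97%, so a lack of overlap alone was common and was not used as a call. In all 6 libraries a level above 0 was found for 311 of the mRNAs that rose and 293 of those that fell. Changes from nothing to a measurable level were rare. Of the mRNAs that rose, 1 was listed at 0 in all 3 libraries of D100, and of those that fell, 8 were listed at 0 in all 3 libraries of Y1.

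Weakly expressed mRNAs contributed more rises and abundant mRNAs more falls. Ordered by mean level over the 18 libraries, the mRNAs were divided into 4 bins of 3632. In the lowest bin (levels of 0.21 to 2.18), 112 rose and 63 fell. In the highest bin (levels of 4.66 to 17.55), 60 rose and 107 fell. The share of mRNAs called ranged over the bins from 4.19% to 5.15%, beside 4.69% over all mRNAs. The balance between rises and falls also moved with the scaling and with single libraries. With FPKM as deposited, 65.5% of the calls were rises, compared with 52.7% after rescaling.

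The number of calls depended on which birds were included. Without D100-1 the total of 681 fell to 232, without Y1-2 to 299 and without Y1-1 to 423. Without D100-2, the bird of D100 that correlated best with the hens, it was 804, with 64.7% rises. Without Y1-3 the falls decreased to 160, while 351 rises were called. In all 6 fits that left out a library, 191 of the 681 mRNAs were called in the same direction, 80 that rose and 111 that fell.

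The mRNA with the largest rise that met the naming rule was ENSGALG00000026383, on chromosome 1. Its level was 3.25, 3.60 and 4.08 in D100 and 8.27, 8.19 and 8.22 in Y1. The hens lay within 0.08 of each other and far above each bird of D100. Mean FPKM was 11.8 in D100 and 298 in Y1, a ratio of 25.2, and the difference in level was 4.58 with a standard error of 1.10 (adjusted p = 0.0234, limma). The spread at other stages, which enters the standard error, was wide. The level reached 8.92 in E12-3 and 8.57 in E16-3 but 4.13 and 4.35 in the other libraries of E12. In the older hens it was 4.06 and 4.64 at Y3 and 3.36 and 0.36 at Y5, below each library of Y1. This mRNA was no longer called in limma without D100-1 (adjusted p = 0.0947), Y1-1 (0.0703), Y1-2 (0.0724) or Y1-3 (0.0562), and it was called in 14 of 20 alternative analyses.

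The second, ENSGALG00000040463 on chromosome 15, had levels of 2.22, 5.85 and 1.88 in D100 and of 7.30, 7.34 and 6.60 in Y1. D100-2 stood between the other birds of its age and the hens. The difference was 3.76 with a standard error of 0.91 (adjusted p = 0.0237, limma), and mean FPKM was 21.0 in D100 and 138 in Y1. The call was lost in limma without D100-1 (adjusted p = 0.117), D100-3 (0.0727), Y1-1 (0.0778) or Y1-2 (0.0797) and with only the libraries of D100 and Y1 (0.0541), and it was kept in 13 of 20 alternative analyses. At Y3 the level was 2.91 and 4.66 and at Y5 it was 2.06 and 3.04, so each of the older hens lay below each hen of Y1, as it did for ENSGALG00000026383.

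The largest fall that met the naming rule was that of ENSGALG00000021931 on chromosome 23. Its level was 7.22, 8.79 and 10.30 in D100 and 2.12, 3.04 and 6.61 in Y1. The groups were separate, but by 0.61 only, and birds of the same age differed by up to 4.49. The difference was -4.85 with a standard error of 1.26 (adjusted p = 0.0336, limma). Mean FPKM was 617 in D100 and 35.7 in Y1. When any of D100-1, D100-2, D100-3, Y1-1 or Y1-2 was left out this mRNA was no longer called, with adjusted p from 0.0515 to 0.137 in limma, and it was called in 12 of 20 alternative analyses.

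ENSGALG00000016564 on chromosome 3 fell with less spread. Its level was 7.23, 6.40 and 5.22 in D100 and 1.50, 1.66 and 1.83 in Y1. Every bird of D100 stood more than 3 above every hen of Y1. Mean FPKM was 89.6 in D100 and 2.18 in Y1, a ratio of 41.0 between D100 and Y1, and the difference was -4.62 with a standard error of 0.60 (adjusted p = 0.000692, limma). The call was kept in all 20 alternative analyses, in which the adjusted p in limma, where one was computed, ranged from 0.000178 to 0.0114. From the embryo to D100 the stage means followed an ascending order, with libraries between 1.35 and 3.34 at E12, between 3.36 and 5.00 at E16, and at 5.42 and 4.88 at E20. At Y3 it was 1.45 and 3.47 and at Y5 4.14 and 4.47, above every hen of Y1 at the later age.

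**Figure D2:**
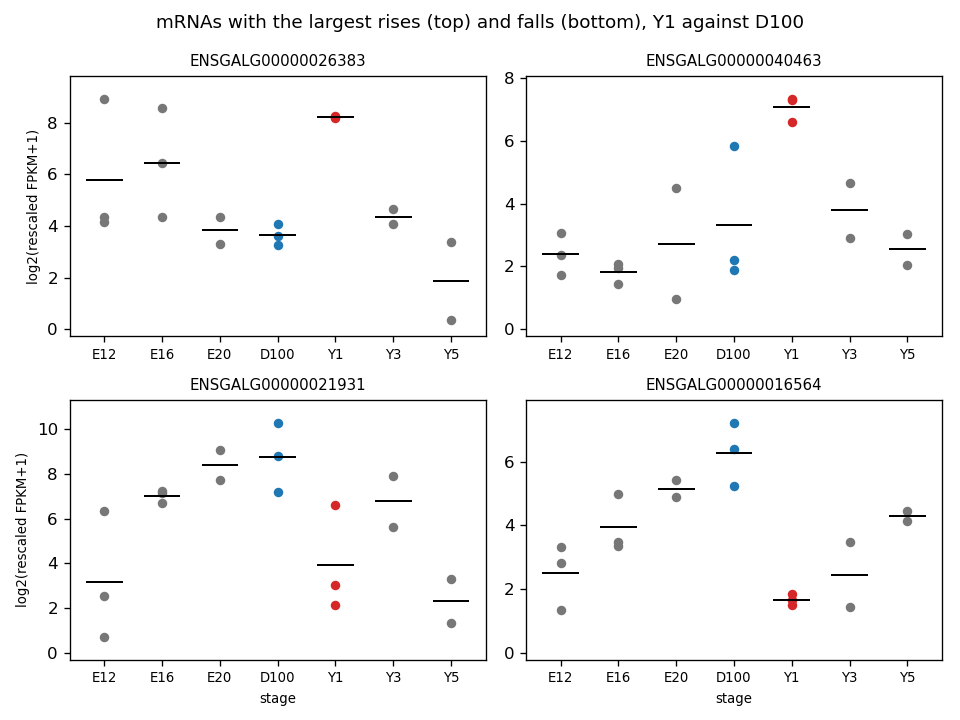
Each panel shows the level of 1 mRNA, log2(rescaled FPKM+1), by stage. Points are single birds, blue for D100, red for Y1 and grey for other stages, and black lines are stage means. In the upper panels the 3 hens of Y1 lie above D100, Y3 and Y5, and in the lower panels D100 has the highest stage mean and lies above all hens of Y1.

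The mRNAs called were found on most chromosomes in shares close to 4.69%. On chromosomes 1 to 10, 208 of 8153 mRNAs rose and 201 fell (5.02% called), and on chromosomes 11 to 33, 125 of 4522 rose and 96 fell (4.89% called). Among the chromosomes with at least 20 mRNAs, chromosome 24 had the highest share, where 6 of 161 mRNAs rose and 9 fell (9.32%), followed by chromosome 21, where 10 of 228 rose and 8 fell (7.89%). On chromosome 11, 9 of 334 mRNAs rose and 1 fell, and on chromosome 25, 6 of 146 rose and 1 fell. None of the 37 mRNAs of the W chromosome and none of the 29 of chromosome 16 were called by limma, where 2 and 5 of them had an unadjusted p under 0.05, and a share of 4.69% would correspond to fewer than 2 mRNAs in either case. On the Z chromosome 11 of 640 rose and 10 fell (3.28%), and on unplaced scaffolds 14 of 1170 rose and 15 fell (2.48%). These shares were not tested.

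The levels of the called mRNAs in birds of other ages were examined next. The calls were made on the difference between D100 and Y1, so the levels in these groups follow from the choice. The other stages entered the choice through the estimate of spread, so their levels are not fully independent of it. The median level of the 359 mRNAs that rose was 1.78, 2.88 and 2.24 in the libraries of D100 and 4.03, 3.91 and 3.75 in those of Y1. It was 3.70 and 4.15 at Y3 and 3.44 and 3.53 at Y5. At E20, before hatching, it was 2.79 and 2.39. The older hens thus had median levels near those of Y1, whereas E20 lay inside the range of D100. The hens of Y3 and Y5 were collected in Lhasa as those of Y1 were, so place and age cannot be told apart here either.

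For the 322 mRNAs that fell, the median level was 5.09, 4.61 and 4.41 in D100 and 3.26, 3.06 and 2.87 in Y1. It was 3.26 and 3.68 at Y3 and 3.34 and 3.43 at Y5, between the groups but nearer to Y1. At E20 the median was 3.91 and 3.93, below each library of D100. D100 had the highest of the 7 stage means for 227 of these 322 mRNAs (70.5%), compared with 9.68% of all mRNAs tested, and the selection for a high level in D100 favours this count. For the mRNAs that rose, Y3 had the highest stage mean for 161 (44.8%), compared with 25.9% of all mRNAs tested. Y1 had the highest for 108 (30.1%, compared with 7.29%) and D100 the lowest for 144 (40.1%, compared with 13.9%), and the selection favours both of these counts. The levels at Y3 rest in part on Y3-b, which had the lowest share of ENSGALG00000017926 of the 18 libraries (19.3%). Its scaling factor was 0.350 in log2, compared with -0.028 under median-ratio scaling, and its median level over all mRNAs was the highest (3.86).

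**Figure D3:**
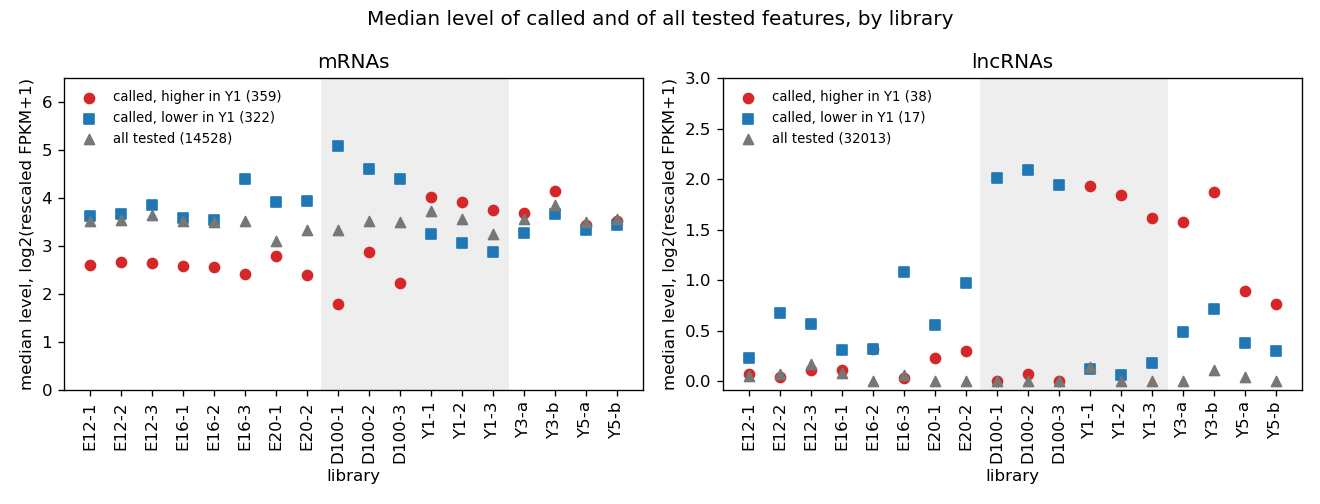
Median level, log2(rescaled FPKM+1), in each of 18 libraries for the features called higher in Y1 (red), those called lower (blue) and all features tested (grey), with mRNAs on the left and lncRNAs on the right. The grey band marks the libraries of D100 and Y1 used for the calls. Outside the band, the red medians of Y3 lie near those of Y1 in both panels, and the blue medians of the older hens lie below those of D100.

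A pair of comparisons used none of these 6 libraries, although the estimate of spread was common to the fit. Between Y3 and Y5, which comprised different birds, 18 of the 359 mRNAs called higher in Y1 were called lower at Y5 (5.01%). Called higher at Y5 were 5 (1.39%), where 0.737% of all mRNAs were called lower and 0.427% higher. Of the 322 that had fallen by Y1, limma called 0 lower, with 26 at an unadjusted p under 0.05, and 3 higher between Y3 and Y5 (0.932%). The median difference between Y3 and Y5 was -0.49 for the mRNAs that had risen, compared with -0.18 for all mRNAs. Y3-b, with its high scaling factor, entered this comparison, and its part in these values was not tested. Between E12 and E16, 19 of the mRNAs that rose between D100 and Y1 fell (5.29%) and 2 rose, where 1.64% of all mRNAs fell and 0.675% rose. Of the mRNAs that fell between D100 and Y1, 9 fell and 8 rose between E12 and E16. E16-3 entered this comparison and correlated with D100-1 at 0.914, compared with 0.853 for both E16-1 and E16-2. Its part in these counts was not tested.

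Fewer lncRNAs than mRNAs were called, but many lncRNAs lay so near 0 that a difference of 1 was nearly out of reach. In the lowest and second of 4 bins by mean level, with levels up to 0.17 and 8003 lncRNAs each, 0 were called. Where a mean FPKM of at least 1 was required, 73 of 4364 lncRNAs and 679 of 13631 mRNAs were called. Of 32013 lncRNAs with a value in more than 1 of the 18 libraries, 38 rose and 17 fell, which is 0.172% of those tested, 0.119% higher and 0.0531% lower in Y1. The groups did not overlap for any of these 55. Among all lncRNAs tested, Y1 lay entirely above D100 for 3.70% and entirely below for 2.50%. The median difference was 1.60 for those that rose and -1.65 for those that fell. An adjusted p under 0.01 in limma was reached by 3 rises and 1 fall. When the fit was restricted to the 6 libraries of D100 and Y1, limma called 0 lncRNAs, with 1071 at an unadjusted p under 0.05, and 255 mRNAs. The median SD, over the 3431 lncRNAs for which it was computed, was 0.505 at D100 and 0.459 at Y1. At the other stages fitted it was lower, from 0.203 at Y5 to 0.39 at Y3. The restricted fit leaves out these stages but also has fewer libraries, and the part of each in the loss of calls was not tested. In all 6 fits that left out a library, 18 of the 55 lncRNAs were called in the same direction, 14 that rose and 4 that fell. Without Y1-3 the calls increased to 180, of which 158 were rises, and without Y1-1 or without Y1-2 they decreased to 29.

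Most lncRNAs had a value in some birds only. A cell of the lncRNA table without a value was taken as 0, which was the case for 61.9% of the cells of these 6 libraries. The number of lncRNAs with a value was 14522, 13509 and 14952 in D100 and 19227, 16439 and 12618 in Y1. Y1-1 had the most and Y1-3 the fewest of the 6 libraries. These numbers were not adjusted for the reads of a library. Among these 6 libraries, Y1-3 had the most reads in the study's list. A value in all 3 hens of Y1 and in no bird of D100 was found for 384 lncRNAs, and the opposite for 138, while 6237 had a value in all 6 libraries. Of the 384, 13 were called, and of the 138, 5 were called, where 0.119% of all lncRNAs tested were called higher and 0.0531% lower in Y1. Both sets were defined by separate groups, so nothing can be read from these counts. These transcripts were scarce, with a median FPKM of 0.451 in Y1 for the first set and of 0.507 in D100 for the second. A mean of at least 1 FPKM was reached by 50 of the 384 and by 28 of the 138. Among the 384, 59 had a value in all 4 libraries of Y3 and Y5 and 53 in none of them. Among the 138, 10 had a value in all 4 and 24 in none.

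The 38 lncRNAs that rose had a median level of 0, 0.08 and 0 in D100 and of 1.93, 1.85 and 1.62 in Y1. At Y3 the medians were 1.58 and 1.88, close to Y1, and at Y5 0.90 and 0.76, between Y1 and D100. The 17 that fell had medians of 2.01, 2.10 and 1.95 in D100 and of 0.13, 0.06 and 0.19 in Y1. In the older hens they were 0.49 and 0.72 at Y3 and 0.38 and 0.30 at Y5. D100 had the highest stage mean for 16 of these 17 lncRNAs, compared with 13.2% of all lncRNAs tested, and their selection for a high level in D100 favours this count.

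The named lncRNAs are those with the largest changes among the 8 rises and 7 falls that were above 0 in all 6 libraries, and lncRNAs at 0 in some of these libraries include larger changes. The calls of the named lncRNAs depended on single libraries. Of the 6 fits that left out a library, limma kept the call of TU7489 in 6, of TU74701 in 3, of TU174646 in 1 and of the other 5 in 2 each. Adjusted p in these fits was at most 0.0401 for TU7489 and reached between 0.0881 and 0.115 for the others. Over all 23 alternative analyses the call was kept in 19 for TU7489, in 15 for TU144586 and TU174812, in 14 for TU177766, TU74701 and TU164180, in 13 for TU104221 and in 12 for TU174646.

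Among these, TU144586 had the largest rise, from levels of 1.13, 0.82 and 1.25 in D100 to 4.27, 4.27 and 3.85 in Y1. All hens of Y1 stood more than 2.5 above all birds of D100. The difference was 3.07 with a standard error of 0.54 (adjusted p = 0.0353, limma), and mean FPKM was 1.11 in D100 and 16.7 in Y1. The call was lost without D100-1 (adjusted p = 0.0713, limma), D100-2 (0.0711), Y1-1 (0.0892) or Y1-2 (0.0856). A high level was not particular to the hens, since E12 had 3.53, 3.14 and 3.88, with 2.86, 1.08 and 1.04 at E16 and 1.53 and 0.89 at E20. It was 2.54 and 4.64 at Y3 and 3.84 and 2.74 at Y5.

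TU174646 had levels of 0.34, 0.56 and 0.71 in D100 and of 3.87, 3.01 and 1.62 in Y1, a difference of 2.30 with a standard error of 0.42 (adjusted p = 0.0353, limma). TU174812 had 0.25, 0.41 and 0.12 in D100 and 2.82, 2.38 and 1.36 in Y1, a difference of 1.92 with a standard error of 0.33 (adjusted p = 0.0353, limma). TU174646 was called in limma only when Y1-3 was left out among those 6 fits, with adjusted p from 0.052 to 0.105 in the other 5. TU174812 was not called without D100-1 (0.0694), D100-3 (0.0561), Y1-1 (0.0881) or Y1-2 (0.0839). In both lncRNAs Y1-1 was the highest hen and Y1-3 the lowest, and both were low in all embryos. The levels at Y3 were 2.76 and 2.03 for TU174646 and 2.40 and 1.39 for TU174812. At Y5 they were near the levels of D100, with 0.42 and 0.46 for TU174646 and 0.10 and 0.35 for TU174812.

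TU7489 rose from 0.19, 1.85 and 0.97 in D100 to 3.14, 3.02 and 3.57 in Y1, a difference of 2.24 with a standard error of 0.35 (adjusted p = 0.0221, limma). D100-2 was again the bird of D100 nearest to the hens. At E12 TU7489 was nearly absent, with 0.14, 0 and 0.09, and at E20 it had 0.89 and 1.15. At Y3 it was 2.91 and 3.56 and at Y5 1.74 and 1.53.

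TU74701 was the most abundant lncRNA among those named, with levels of 10.01, 9.04 and 9.58 in D100 and 7.77, 7.07 and 6.57 in Y1. Mean FPKM was 774 in D100 and 148 in Y1, a ratio of 5.24. The difference was -2.41 with a standard error of 0.43 (adjusted p = 0.0353, limma), and the call was lost without D100-1 (0.103), D100-3 (0.0694) or Y1-2 (0.0882). At E20 it had 8.63 and 8.40, at Y3 6.21 and 7.93 and at Y5 8.19 and 7.93, so that both hens of Y5 lay above every hen of Y1 and below every bird of D100.

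The other 3 falls had similar levels. TU177766 fell from 5.94, 5.03 and 4.75 in D100 to 2.67, 2.35 and 2.54 in Y1, a difference of -2.72 with a standard error of 0.48 (adjusted p = 0.0353, limma). TU164180 fell from 5.93, 5.63 and 4.67 to 3.06, 3.38 and 2.62, a difference of -2.39 with a standard error of 0.43 (adjusted p = 0.0353, limma). TU104221 fell from 6.21, 5.41 and 5.74 to 3.75, 3.38 and 3.44, a difference of -2.27 with a standard error of 0.42 (adjusted p = 0.0375, limma). All 3 calls were lost in limma without D100-1, Y1-1 or Y1-2, with adjusted p from 0.0525 to 0.115. Those of TU177766 (0.0505) and TU164180 (0.077) were also lost without D100-2, and that of TU104221 (0.0611) without D100-3. In each of them the hens of Y1 were within 0.8 of each other and more than 1 below every bird of D100. In all 3, both hens of Y5 were between the birds of D100 and those of Y1, or within the range of Y1 in the case of Y5-b for TU164180, which had 3.36.

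**Figure D4:**
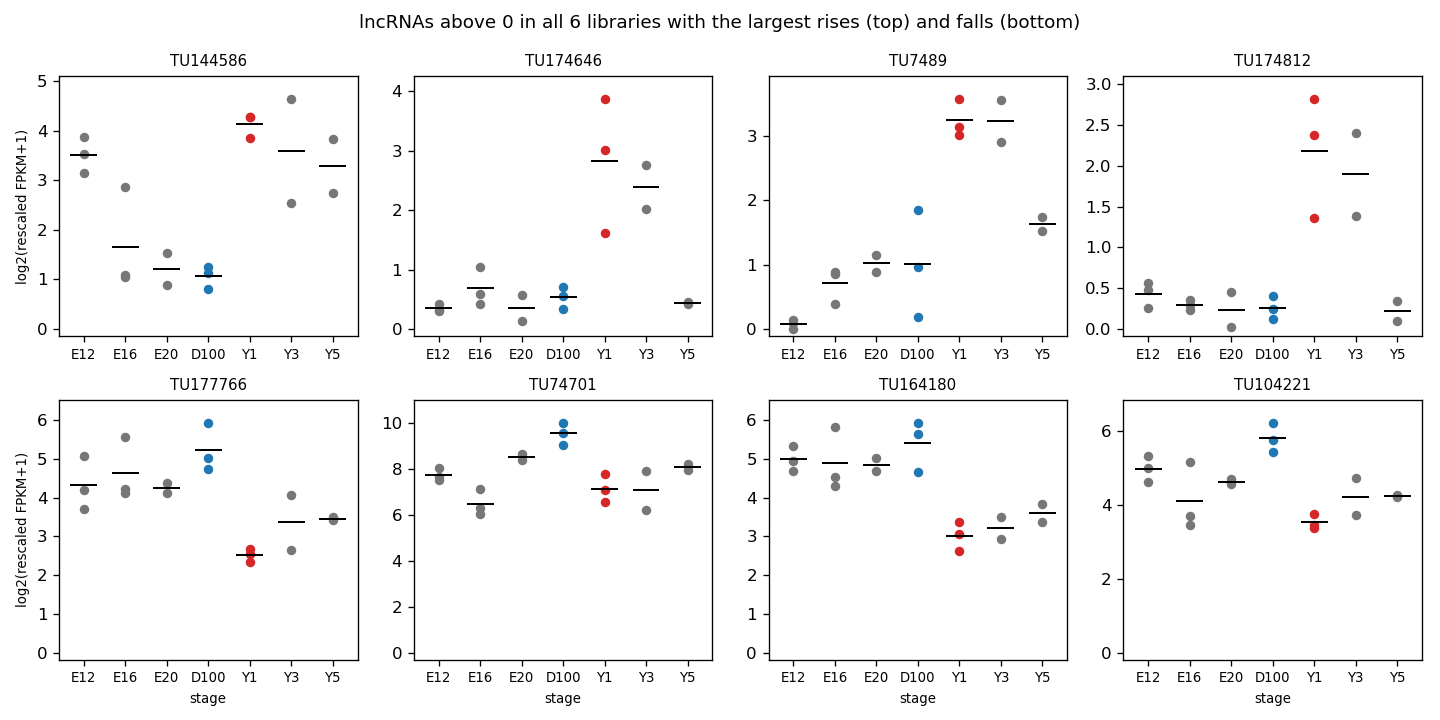
Level, log2(rescaled FPKM+1), by stage, of the 4 lncRNAs with the largest rises (upper row) and the 4 with the largest falls (lower row) among called lncRNAs above 0 in all 6 libraries of D100 and Y1. Points are single birds, blue for D100, red for Y1 and grey for other stages, and black lines are stage means. In the upper row Y1 and Y3 are high, and TU174646 and TU174812 are low at Y5, and in the lower row D100 has the highest stage mean.

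Primers for qPCR exist for 10 of the lncRNAs. Because they were chosen on the basis of these libraries, they are no independent sample of lncRNAs. None of the 10 was called between D100 and Y1 (limma with Benjamini-Hochberg adjustment), and 1 of them had an unadjusted p under 0.05. Of all lncRNAs 0.172% were called, a share so low that the lack of calls among 10 says nothing about them. The fitted difference was below 0 for 6 and above 0 for 4. The groups did not overlap for 3 of the 10, with 1 higher and 2 lower in Y1. Y1 lay above D100 for 3.70% and below it for 2.50% of all lncRNAs. Many of those lay at 0, where tied groups cannot be separate, whereas the 10 had levels of at least 1.72 in these libraries. Among mRNAs the shares were 12.9% and 8.97%, so no excess can be read from 3 of 10. The primers of the 3 with separate groups are printed, since they identify the transcript that a laboratory would amplify to measure its level. They come from the study's primer list and are written 5′ to 3′ in lower case.
TU26292 forward: tccaggacccaaatacccct
TU26292 reverse: agcagagccccttaacatgg
TU99158 forward: tggtcaaggcgtagagggta
TU99158 reverse: atggggtttgctggcatgta
TU50759 forward: cgttggcaaaggggtttctg
TU50759 reverse: acgtggaccataccttgcac

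TU26292 had the largest difference of the 10. Its level was 4.87, 5.42 and 6.76 in D100 and 3.15, 2.97 and 3.90 in Y1, and the lowest bird of D100 stood 0.98 above the highest hen. The difference of -2.35 had a standard error of 0.74 and an unadjusted p of 0.00597 in limma, and its adjusted p over all lncRNAs was 0.319. All embryonic libraries had levels between 5.18 and 6.62. The older hens had 2.49 and 4.64 at Y3 and 4.33 and 0.82 at Y5, so that birds of the same age differed as much as the stages did.

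TU99158 had 3.55, 2.63 and 2.83 in D100 and 2.52, 1.87 and 1.72 in Y1, and the groups were separated by 0.11 (difference -0.96, standard error 0.57, adjusted p = 0.713, limma). Its levels at E12 and E16 were higher, between 4.76 and 6.09. TU50759 was the only one of the 3 with higher values in Y1, where it had 4.54, 4.66 and 4.38 compared with 4.17, 4.22 and 2.95 in D100 (difference 0.74, standard error 0.37, adjusted p = 0.709, limma). D100-3 was the low library. At E12 TU50759 had 1.88, 1.82 and 1.58.

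For the other 7 lncRNAs the groups overlapped. TU166039 had 3.72, 3.20 and 4.06 in D100 and 3.73, 3.09 and 2.32 in Y1 (difference -0.62, adjusted p = 0.742, limma). In TU38242, TU45029, TU56811, TU6367, TU178751 and TU167089 the difference was at most 0.34 in size. D100-3 had the highest level of the 6 libraries for TU45029 (4.90), TU56811 (5.13) and TU178751 (5.92) and the lowest for TU167089 (2.82).

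**Figure D5:**
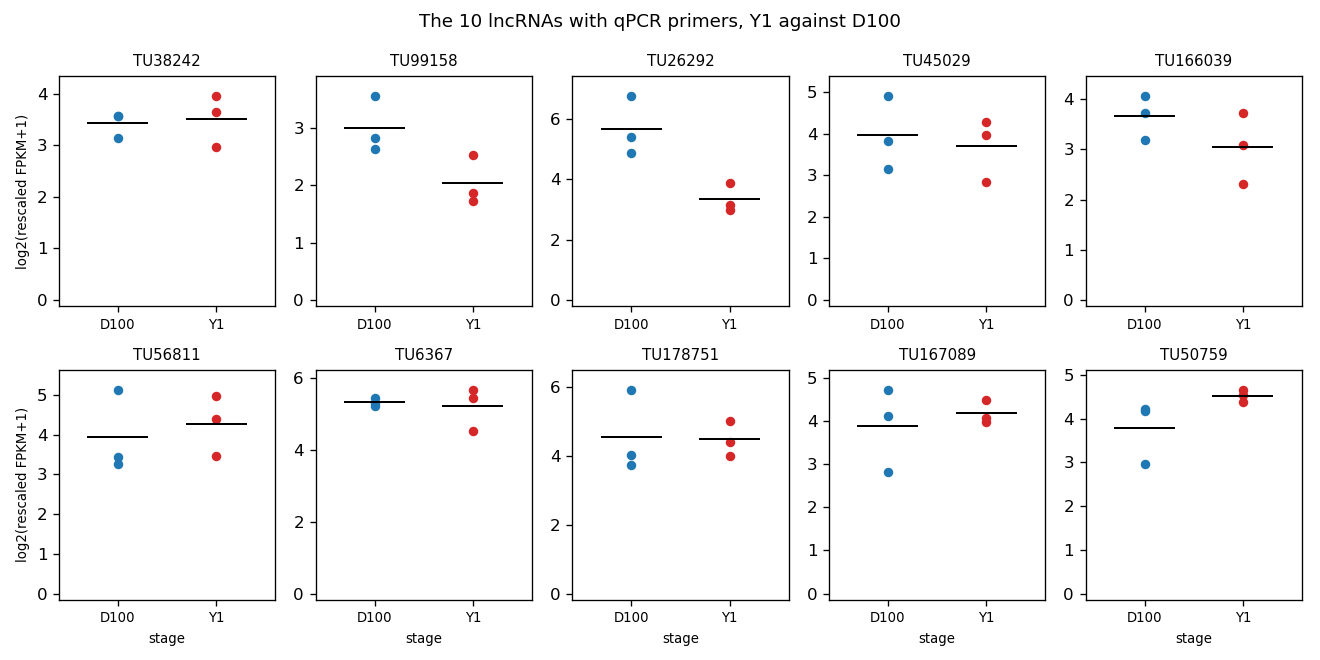
Level, log2(rescaled FPKM+1), of the 10 lncRNAs with qPCR primers in the 3 birds of D100 (blue) and the 3 hens of Y1 (red), with the group means as black lines and axes starting near 0. The groups are separate for TU99158, TU26292 and TU50759 and overlap in the other panels.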

How the data were processed

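By the authors' description, ribosomal RNA was removed before paired-end sequencing. The alignment to the chicken genome (Gallus_gallus-5.0) was made with HISAT2 and the assembly of transcripts with StringTie 1.3.3. FPKM came from Cufflinks 2.2.1 and StringTie, and the authors deposited log2 values of FPKM+1 for 14558 mRNAs and 39907 lncRNAs. No counts were used, so the number of fragments behind a value and its counting error are unknown here. The study lists the reads of each library, with fewer clean reads for D100-1 and D100-2 than for any library of Y1. These read numbers did not enter the fits. Of the columns in each table, 3 name no stage and were not used.

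Values were returned to FPKM, the 30 mitochondrial features were removed, and each library was scaled to the mean non-mitochondrial total. The same factors were used for lncRNAs. Differences between stages were estimated with limma 3.58.1 under R 4.3.3 (pseudocount 1, 7 stage means, variance trend). A feature was called at a fold change of 2 or more, or 0.5 or less, with a Benjamini-Hochberg adjusted p up to 0.05. The procedure was tested on simulated data. Replicates are separate birds. Replicate numbers of D100 and Y1 did not pair birds.

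The comparison, lists and rules were chosen with earlier results of these data known. The naming rule was the largest changes among called features whose groups do not overlap and which are above 0 in all 6 libraries, plus the qPCR lncRNAs. For mRNAs it was narrowed to 2 rises and 2 falls, because 0 identifiers matched a symbol. ENSGALG00000017926, the most abundant mRNA that is not mitochondrial, was added after its values were seen. The called mRNA with the highest mean level in each direction was also listed for naming but was not named here. Gene lists and cell type markers given by symbol were not analysed here, and neither were D300 or lncRNA positions. Alternatives were other scalings, filters, corrections, pseudocounts and fits, a replicate block and leaving out libraries.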

Additional observations from a re-analysis of the deposited data

How the results depend on the processing

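The 681 mRNA calls (359 higher and 322 lower in Y1) and the 55 lncRNA calls (38 and 17) in limma varied as follows. With Bonferroni adjustment 32 mRNAs (7 and 25) and 4 lncRNAs (3 and 1) were called, and with unadjusted p 1102 mRNAs (603 and 499) and 538 lncRNAs (279 and 259). With only the libraries of D100 and Y1 the calls were 255 mRNAs (91 and 164) and 0 lncRNAs (0 and 0). Leaving out a library in turn gave 232 to 804 mRNAs, 104 to 520 higher and 128 to 395 lower, and 29 to 180 lncRNAs, 17 to 158 higher and 5 to 38 lower. Without a variance trend 94 lncRNAs were called (58 and 36), with a value required in more than 1 of the 6 libraries 90 (59 and 31), and with cells left missing 28 (15 and 13). Lower lncRNAs numbered 27 with median-ratio scaling, 27 at a mean FPKM of at least 1 and 9 without a filter. Each library came from a different bird, so the replicate numbers did not pair birds. Deviations of same-numbered libraries of D100 and Y1 correlated at -0.19, -0.01 and -0.27, and none correlated best with its own number. Deviations from a group mean constrain each other, so these values cannot decide whether same-numbered libraries were processed together. The replicate block was fitted without Y3 and Y5, whose libraries had no usable replicate number. It gave 479 mRNAs and 1 lncRNA (1 higher and 0 lower), compared with 620 mRNAs and 32 lncRNAs for the same libraries without the block. Other scalings, pseudocounts and filters kept the mRNA total between 635 and 760, and none turned the direction of a call. The cause of these shifts was not tested.

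Further fits were added once the data had been seen, namely the numbered libraries without the block (620 mRNAs, and 32 lncRNAs of which 2 lower), all libraries but D100-3 and Y1-3 (775 mRNAs, and 209 lncRNAs, 163 and 46) and all but E16-3 (838 mRNAs and 50 lncRNAs). The sign of the difference turned only for features that were not called. With FPKM as deposited it was 0.024 for ENSGALG00000017926 and 0.02 for TU178751. Leaving out a library in turn gave -0.205 to 0.07 for ENSGALG00000017926, -0.126 to 0.37 for TU38242, -0.671 to 0.198 for TU45029, -0.005 to 0.937 for TU56811, -0.343 to 0.228 for TU6367, -0.485 to 0.607 for TU178751 and -0.24 to 0.715 for TU167089. Without both D100-3 and Y1-3 it was 0.625 for TU45029, 0.293 for TU6367, 0.843 for TU178751 and -0.396 for TU167089. Alternatives for gene lists other than the qPCR lncRNAs were not run, because identifiers could not be matched. No qPCR lncRNA was called with the other scalings run for that list or without any library.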

Other observations

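The 322 mRNAs that fell between D100 and Y1 had a median level of 4.41 in E16-3, compared with 3.58 and 3.54 in E16-1 and E16-2. Over all mRNAs, E16-3 correlated at 0.914 with D100-1, at 0.918 with E16-1 and at 0.922 with E16-2. The correlation of D100-1 was 0.853 with E16-1 and 0.853 with E16-2. Among the named lncRNAs that fell, TU177766 had 5.56 in E16-3 and 4.22 and 4.12 in the other libraries of E16, and TU104221 had 5.15 in E16-3 and 3.70 and 3.46 in the others.

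Among the named mRNAs, ENSGALG00000021931 had 6.36 in E12-1 but 0.69 and 2.52 in E12-2 and E12-3. ENSGALG00000026383 was at 8.92 in E12-3 alone among the libraries of E12, and at 8.57 in E16-3.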
